A study of Homo sapiens with 13 samples.

Results

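The T cell receptor recognises antigen, and it signals only through the chains that travel with it. The genes described here encode those chains and the first proteins they act on. They are the CD3 chains CD3D, CD3E and CD3G, the zeta chain CD247, the coreceptor CD4, the receptor regulator CD5, the kinases LCK and ZAP70, and the regulators THEMIS and UBASH3A. They were chosen as a list of 10 genes, and every probe of the array carrying one of these names was taken. This gave 13 probes of 34127, which carry 25940 gene names in all. Second probes measured CD247, LCK and UBASH3A.

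RNA was measured in CCRF-CEM cells, which come from a human acute lymphoblastic leukemia of T lineage, as parental cells (CEM PA) and as a derivative resistant to FK866 (CEM RES). FK866 inhibits NAMPT, the enzyme that recycles nicotinamide into NAD+. CEM RES were selected in rising FK866, and cells resistant to 100 nM were used. This subline was kept in 100 nM FK866 between experiments, so CEM RES given DMSO had met the drug before, and the 5 nM given here was below the dose of their routine culture. The sample titles name resistant CCRF-CEM cells and do not say whether they were cloned. Cells of both lines received 5 nM FK866 or DMSO (mock) for 48 h. The 1-colour Agilent arrays numbered 3 for mock CEM PA, 2 for CEM PA with FK866, 4 for mock CEM RES and 4 for CEM RES with FK866, each labelled as a biological replicate.

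In T cells LCK, held at the membrane and bound to CD4, phosphorylates tyrosine motifs in the cytoplasmic tails of the CD3 and zeta chains. ZAP70 docks on these motifs and is activated by LCK, and it then phosphorylates the adaptors that carry the signal to calcium, Ras and NF-kB. CD5 and UBASH3A are known to dampen this signal, and THEMIS adjusts it during thymocyte selection. Many T cell leukemias are arrested at stages of T cell development at which some of these genes are switched on.

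Values are log2 signals after quantile normalization over the 13 arrays. A difference of 1 is a doubling, and levels are compared between arrays for the same probe and not between probes. In such bulk RNA a lower level cannot tell fewer cells with the transcript from less of it per cell. A probe entered the test if all arrays of some group read it well above background, and 22751 probes did. All 13 probes passed, 12 of them with signal above background on all 13 arrays. The exception was the second CD247 probe, which was above background on all 5 CEM PA arrays, on 1 of 4 mock CEM RES arrays and on 2 of 4 CEM RES arrays with FK866. Differences are from 1 limma model of the 4 groups, with SE, and a gene was called at a Benjamini-Hochberg adjusted p under 0.05 over all 22751 probes.

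Each array carried 43118 spots that were not controls, of which 26457 to 33239 were well above background and 0 were saturated. Replicate 1 of mock CEM RES stood apart with 773 outlier spots, against 195 to 344 on the other arrays. All CEM RES arrays were scanned in 1 session and the CEM PA arrays in 2 others, so line and scan session cannot be told apart. Mock and FK866 arrays lay together in these sessions. Of 16 markers of the T lineage, 15 were above background on all 13 arrays, and the exception was DNTT, which was above it on none.

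Array probes are 60 bases long, and where a gene's probes disagreed, what each of them reads matters. The last 30 bases of 8 probes are shown, in the sense of the transcript as the array design gives them, for the probes called between mock cells and, for comparison, for CD3D and for the main probes of CD247 and UBASH3A. Capitals mark AATAAA, the commonest polyadenylation signal, which was searched on the probe strand only and lies near the end of a transcript where it is used.
CD3D: cttcccttcttgctcagccAATAAAtatat
CD3E: ccacgagagagaatcgttcctcagcctcat
CD3G: gccatcagagcaaatttgggggtttctcaa
CD247: agtgtgAATAAAgtgctgcggagcaagagg
CD247 second probe: gttggaggaagggctggaggagggctccag
CD5: ccaaaccaaaAATAAAgagtttagttgagg
UBASH3A: tgatttgtagaagcacgagacgcactttta
UBASH3A second probe: cccacacgtgacactctgtgacttcttcac

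AATAAA was present in 4 of the 13 probes, those of CD3D, CD4, CD5 and the main probe of CD247, and in 7.67% of all 34127 probes. The probes of CD3E (chr11:118186314-118186373, hg19, plus strand), CD3D (chr11:118209803-118209862, minus strand) and CD3G (chr11:118223931-118223990, plus strand) lie side by side on chromosome 11. The CD5 probe is on the same chromosome at chr11:60895260-60895319. The main UBASH3A probe (chr21:43867379-43867438) starts at base 2144 of its transcript, and the second probe (chr21:43829657-43829716) at base 377 of another transcript of the gene. The main CD247 probe (chr1:167400151-167400210, minus strand) starts at base 1347 and the second (chr1:167404571-167404630) at base 405 of its own transcript.

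The first question was how the resistant line differed from the parental line without the drug. In mock-treated cells CD3E and CD3G were higher in CEM RES, CD5 was lower, and CD3D, CD4, LCK and ZAP70 were not called. Of the 13 probes, 5 were called, 2 higher and 3 lower, where 47.6% of all probes tested were called. The share among the members was thus near that of the whole array. The second CD247 probe, 1 of the 5, was tested only because CEM PA passed the filter, and over the 12 probes above background on all arrays 4 were called. The median log2 difference of all 13 member probes was -0.12, against 0.04 over all probes tested. The study's own limits, an unadjusted p under 0.05 and an absolute log2 fold change over 0.75, held for 5 member probes and for 35.6% of all probes.

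**Figure D1:**
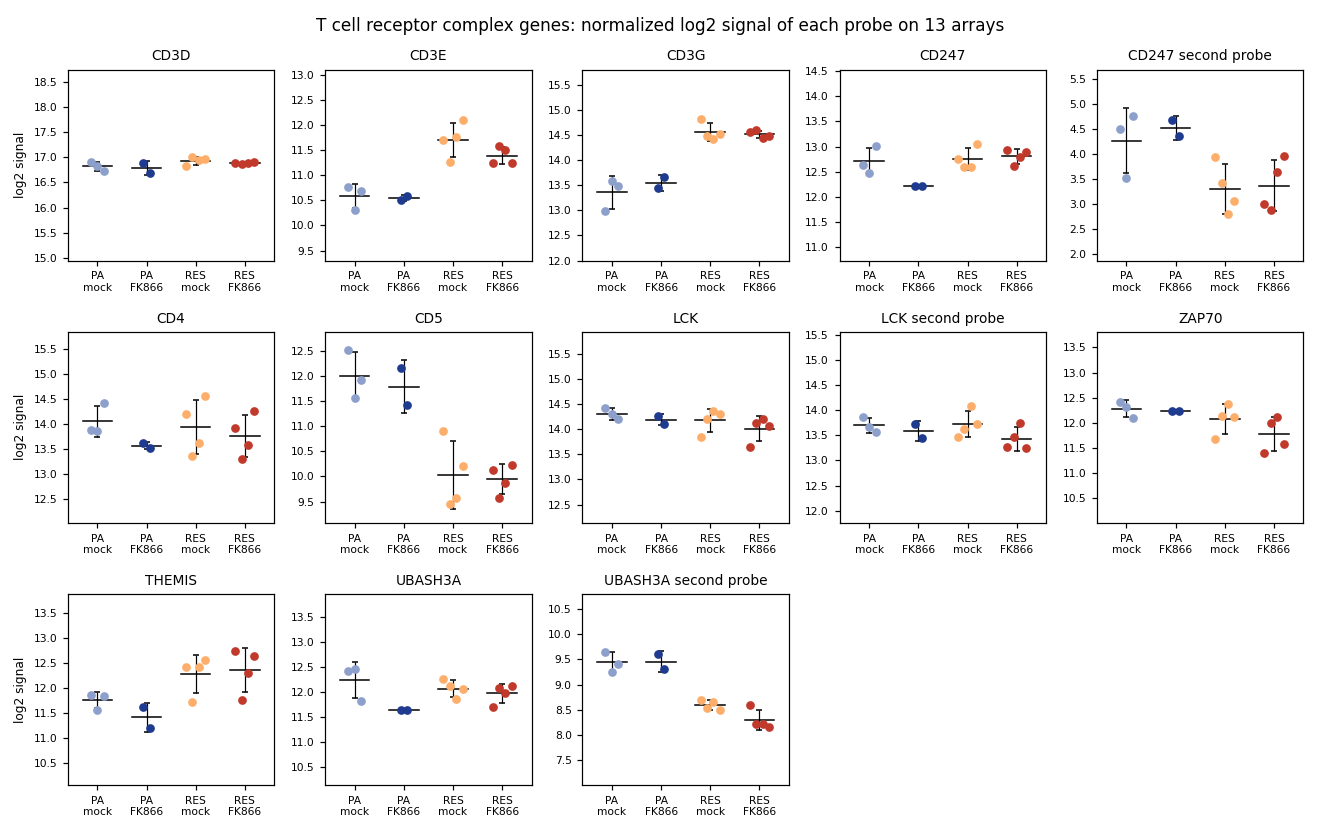
Normalized log2 signal (vertical axes, all panels spanning the same range) of the 13 probes in the 4 groups (horizontal axes). Each point is 1 array, long bars are group means and error bars are SD. For CD3E, CD3G, CD5 and the second UBASH3A probe all CEM RES arrays lie to one side of all CEM PA arrays.

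CD3E, the epsilon chain that pairs with both the gamma and the delta chain, read 10.77, 10.31 and 10.68 in mock CEM PA. It read 11.70, 11.27, 11.76 and 12.09 in mock CEM RES. The groups did not overlap, and the lowest CEM RES array was the second. The difference was 1.12 (SE 0.19, adjusted p = 0.000622), or 2.17-fold. With FK866 the values were 10.50 and 10.59 in CEM PA, against 11.24, 11.57, 11.50 and 11.25 in CEM RES, again apart, with a difference of 0.85 (SE 0.22, adjusted p = 0.0107). This call rested on both CEM PA arrays, since the adjusted p was 0.0838 without the first and 0.0530 without the second.

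CD3G, the gamma chain, was higher in CEM RES too. It read 12.98, 13.59 and 13.49 in mock CEM PA against 14.81, 14.48, 14.42 and 14.52 in mock CEM RES. Every CEM RES array lay above every CEM PA array, by 1.20 on average (SE 0.17, adjusted p = 0.00013), or 2.30-fold. Under FK866 the CEM PA arrays read 13.43 and 13.66 and the CEM RES arrays 14.55, 14.59, 14.43 and 14.48, a difference of 0.96 (SE 0.19, adjusted p = 0.0021). Leaving out any single array kept both calls, with differences from 1.02 to 1.32 between mock cells and from 0.85 to 1.08 with FK866.

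CD3D, the delta chain, was not called, unlike the genes on either side of it. Its mock values were 16.91, 16.82 and 16.73 in CEM PA, against 16.82, 16.999, 16.95 and 16.97 in CEM RES, and the groups overlapped. The difference was 0.11 with a 95% interval from -0.14 to 0.37 (adjusted p = 0.452). The value depended on the scaling, as with arrays set to their 75th percentile the mock difference was 0.53 and was called (adjusted p = 0.00581). That scaling moved the median of all probes from 0.04 to 0.17, so CD3D remained above it. With FK866 the CD3D difference was 0.10 by quantile normalization and 0.29 by the percentile, and neither was called.

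CD247, the zeta chain, carries most of the phosphorylated motifs of the receptor. Its main probe read 12.63, 12.48 and 13.005 in mock CEM PA and 12.76, 12.59, 12.59 and 13.05 in mock CEM RES. These ranges overlapped almost entirely, with a difference of 0.04 and a 95% interval from -0.32 to 0.41 (adjusted p = 0.847). With FK866 the CEM PA arrays read 12.22 and 12.21 and the CEM RES arrays 12.93, 12.61, 12.79 and 12.90. Here the groups were apart and the difference of 0.59 (SE 0.19, adjusted p = 0.0289) was called. The call was lost, with adjusted p from 0.0564 to 0.131, when either CEM PA array or CEM RES replicate 1 or 4 with FK866 was left out, and it was lost at the 75th percentile (adjusted p = 0.0507).

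The second CD247 probe went the other way and was dim. It read 4.50, 3.53 and 4.75 in mock CEM PA against 3.94, 3.43, 2.80 and 3.06 in mock CEM RES, and these ranges overlapped. The probe entered the test only through CEM PA, where it was higher. The difference of -0.96 (SE 0.36, adjusted p = 0.0416) was past the threshold, but only 6 of 13 fits that left out 1 array kept it there. It was lost under 7 of the 9 other alternatives that tested it, at adjusted p from 0.0612 to 0.248, among them the fit without a filter (0.0692) and the replicate block (0.0889). With FK866 the difference was -1.14 (SE 0.40, adjusted p = 0.0426). There 7 of 13 such fits kept it and 5 of the 9 other alternatives lost it, at adjusted p from 0.0552 with the replicate block to 0.348. With CEM RES arrays raised, where lower, to the lowest signal above background on the same array, the signal was 1.68-fold higher in mock CEM PA and 2.06-fold higher in CEM PA with FK866.

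CD4, the coreceptor that binds class II molecules and brings LCK to the receptor, was not called between the lines. It read 13.88, 13.86 and 14.42 in mock CEM PA and 14.19, 13.37, 13.63 and 14.56 in mock CEM RES. The CEM RES values spanned those of CEM PA, with a difference of -0.12 and a 95% interval from -0.76 to 0.53 (adjusted p = 0.772). With FK866 the difference was 0.20 (adjusted p = 0.682).

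CD5, a surface receptor whose level in T cells follows the strength of receptor signalling and which restrains it, had the largest difference of the 13 probes. It read 12.51, 11.56 and 11.91 in mock CEM PA and 10.90, 9.44, 9.57 and 10.21 in mock CEM RES. The groups did not overlap. CD5 was lower in CEM RES by 3.89-fold, or -1.96 on the log2 scale (SE 0.35, adjusted p = 0.000754). The highest CEM RES value was that of replicate 1, the array with many outlier spots, and without it the difference was -2.25 (adjusted p = 0.000171).

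With FK866, CD5 read 12.16 and 11.42 in CEM PA, against 10.12, 9.57, 9.86 and 10.23 in CEM RES. The difference was -1.84 (SE 0.40, adjusted p = 0.0038), and the adjusted p was 0.0651 without the first CEM PA array. Within CEM PA the first scan session read CD5 higher than the second by 0.78 in mock cells and by 0.74 with FK866. No CEM PA array was scanned in the CEM RES session, so a shift of that session was not measured.

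LCK and ZAP70, the kinases that start the signal, did not pass the test in either comparison of the lines. The main LCK probe was spotted 10 times, and the SD over its spots was 0.041 to 0.0817 within an array. It read 14.43, 14.30 and 14.20 in mock CEM PA and 13.84, 14.21, 14.36 and 14.30 in mock CEM RES. The difference was -0.13 with a 95% interval from -0.51 to 0.24 (adjusted p = 0.559), and on the second probe it was 0.02, from -0.38 to 0.41 (adjusted p = 0.944). With FK866 the LCK probes differed by -0.18 and -0.16.

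ZAP70 read 12.42, 12.32 and 12.10 in mock CEM PA and 11.67, 12.14, 12.37 and 12.12 in mock CEM RES, with overlapping ranges. The mock difference was -0.21 with a 95% interval from -0.66 to 0.24 (adjusted p = 0.429). With FK866 the CEM PA arrays read 12.24 and 12.23 and the CEM RES arrays 11.40, 12.005, 12.11 and 11.59. All 4 CEM RES arrays lay below both CEM PA arrays, but the difference of -0.46 (SE 0.23) did not pass the test (adjusted p = 0.144).

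THEMIS, a T lineage protein that binds GRB2 and tunes receptor signalling in thymocytes, had higher fitted values in CEM RES. Mock CEM PA read 11.86, 11.57 and 11.85, and mock CEM RES 12.42, 11.71, 12.43 and 12.56. The groups overlapped through the second CEM RES array, and the difference of 0.52 (SE 0.26) was not called (adjusted p = 0.114). It was called without that array, at 0.71 (adjusted p = 0.0309), and with array quality weights, at 0.73 (adjusted p = 0.0194).

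With FK866, THEMIS read 11.62 and 11.21 in CEM PA, against 12.73, 11.76, 12.31 and 12.64 in CEM RES. The groups were apart and the difference of 0.94 (SE 0.29, adjusted p = 0.0244) was called. Without either CEM PA array, or without CEM RES replicate 1 or 4, the adjusted p was 0.0532 to 0.189. The line difference was not shown to change with the drug, as the test of that change gave 0.42 (SE 0.39, adjusted p = 0.709) for THEMIS and 0.55 (SE 0.25, adjusted p = 0.412) for the main CD247 probe.

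UBASH3A, of a family of phosphatase-like proteins that dampen receptor signalling, gave different answers on its probes. The main probe read 12.42, 12.47 and 11.82 in mock CEM PA and 12.25, 12.12, 11.85 and 12.05 in mock CEM RES. Its ranges overlapped, with a difference of -0.17 and a 95% interval from -0.56 to 0.23 (adjusted p = 0.48). The second probe, near the start of another transcript, read 9.65, 9.25 and 9.42 in mock CEM PA and 8.70, 8.53, 8.65 and 8.49 in mock CEM RES. There the groups were apart and CEM RES was 1.80-fold lower, at -0.85 (SE 0.16, adjusted p = 0.000914).

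With FK866 the second UBASH3A probe read 9.61 and 9.30 in CEM PA, against 8.59, 8.22, 8.22 and 8.15 in CEM RES. It was lower in CEM RES by 2.23-fold, at -1.16 (SE 0.18, adjusted p = 0.000476), and both calls held without any single array. The main probe was at 0.33 (adjusted p = 0.232) with FK866, so its fitted values had opposite signs without and with the drug and neither was called.

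In the comparison of the lines under FK866 as a whole, 7 of the 13 probes were called, 4 higher and 3 lower in CEM RES, where 36% of all probes were called. CD3E, CD3G, the main CD247 probe and THEMIS were higher, and CD5 and the second probes of CD247 and UBASH3A were lower. Without the second CD247 probe 6 of 12 were called. This comparison shares no array with that of the mock cells, but arrays of equal replicate number deviated together, so the comparisons are not independent. Groups did not overlap for 4 probes between mock cells and for 9 under FK866, where they did not overlap for 48.8% and 57.8% of all probes tested. The count under FK866 fell to 2 and 3 without the first and second CEM PA array with FK866, and to 4 without CEM RES replicate 1 with FK866.

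**Figure D2:**
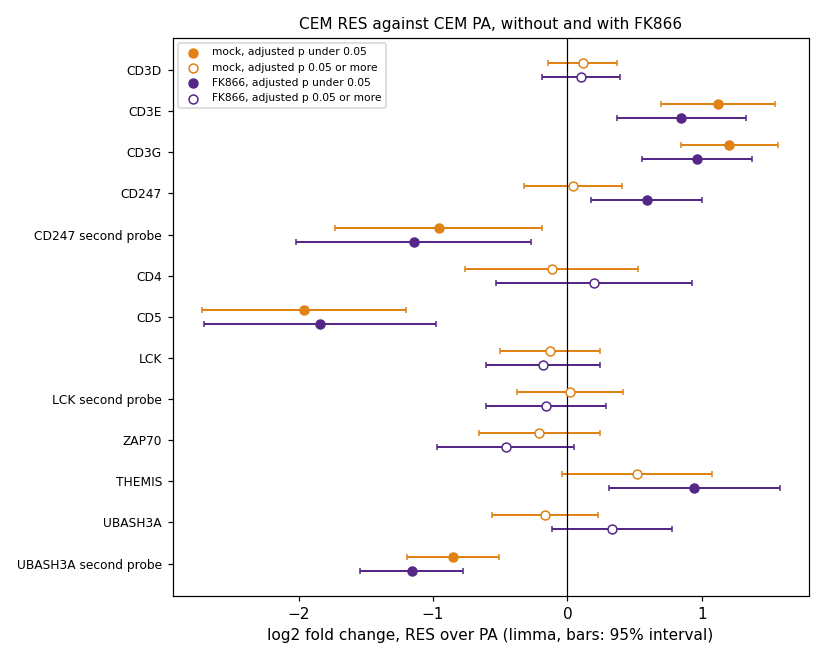
Log2 fold change of CEM RES over CEM PA (horizontal axis) for each of the 13 probes (vertical axis), in mock cells (orange) and with FK866 (purple), with 95% intervals from limma. Filled points passed an adjusted p under 0.05, as CD3E at 1.12 and CD5 at -1.96 did in mock cells, and open points did not.

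The second question was what FK866 did to these genes within a line. The mock arrays of each line are the same as in the comparison of mock cells. In CEM PA 0 of the 13 probes were called with limma, where 1.53% of all probes were. An unadjusted p under 0.05 was found for 2 of the 13 and for 14.4% of all probes. The main UBASH3A probe, with 12.42, 12.47 and 11.82 in mock cells, read 11.64 and 11.65 with FK866. The 2 treated arrays lay below the 3 mock arrays, at -0.59 (SE 0.22, adjusted p = 0.225). With array quality weights the value was -0.71 and passed the test (adjusted p = 0.026). The difference was -0.78 within the first scan session and -0.49 within the second.

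The main CD247 probe was the other with a low unadjusted p. Its treated arrays, at 12.22 and 12.21, lay below the mock arrays, at -0.49 (SE 0.20, adjusted p = 0.283), with -0.41 and -0.53 within the sessions. CD4 read 13.62 and 13.53 with FK866, also below its mock arrays, at -0.48 (SE 0.35, adjusted p = 0.607). The treated and mock arrays of CEM PA did not overlap for these 3 probes of 13, and for 34.8% of all probes. The fitted values of the 13 probes ran from -0.59 to 0.25, with a median of -0.11 against -0.003 for all probes.

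In CEM RES 0 of the 13 probes were called, and 0% of all probes were. An unadjusted p under 0.05 was found for 0 of the 13 and for 5.15% of all probes. Values ran from -0.32 for CD3E to 0.08 for THEMIS, with a median of -0.09 against -0.02 over all probes. The interval for CD3E was -0.71 to 0.08, and that for CD5 was -0.79 to 0.62. Mock and FK866 arrays overlapped for every member, and did not for 2.91% of all probes. The lowest unadjusted p was 0.0651, for the second UBASH3A probe at -0.29, with -0.16 on 1 slide and -0.43 on the other.

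The responses of the lines were also set against each other. The difference between them was called with limma for 0 of the 13 probes and for 0.413% of all probes. An unadjusted p under 0.05 was found for 0 of the 13 and for 12.1% of all probes. The difference ran from -0.31 to 0.55 over the members. With 2 treated CEM PA arrays the intervals were wide, for CD5 from -1.03 to 1.27.

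**Figure D3:**
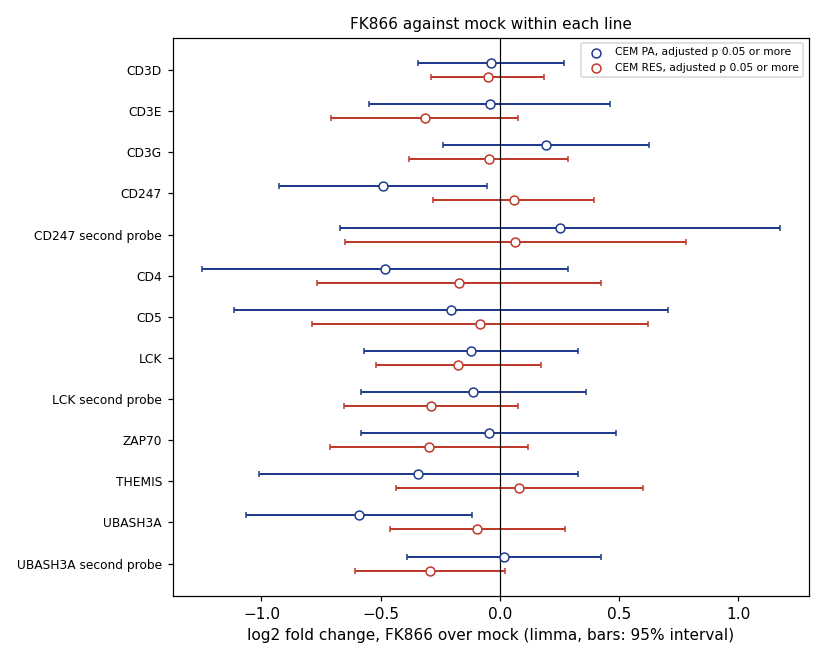
Log2 fold change of FK866 over mock (horizontal axis) for each of the 13 probes (vertical axis) in CEM PA (blue) and CEM RES (red), with 95% intervals from limma. All points are open, since none passed an adjusted p under 0.05, and the CEM PA values run from -0.59 to 0.25.

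The other genes of the pathway were taken from 5 lists, with the probe of highest mean signal for each gene. Over the lists 85 genes were tested and 43 were called between mock cells, 18 higher and 25 lower in CEM RES, where 47.4% of 17594 genes were called. Their median difference was -0.11 against 0.04 for all genes. Under FK866 43 were called again, 18 higher and 25 lower, where 35.4% of genes were called. FK866 against mock called 0 of the 85 in CEM PA with limma, where 0.983% of genes were called, and 0 in CEM RES. At an unadjusted p under 0.05 there were 10 in CEM PA and 6 in CEM RES. Over all probes tested, not 1 per gene, that limit was met by 14.4% and 5.15%. The lowest adjusted p in CEM PA was 0.0664, for the adaptor NCK1 at 0.70.

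Receptor chains under the names listed were measured by 2 genes, TARP and PTCRA. TARP was at 0.10 between mock cells and was not called (adjusted p = 0.664). PTCRA, the partner of the beta chain in the pre-T cell receptor, was lower in mock CEM RES by -1.24 (SE 0.22, adjusted p = 0.000641), with a mean of 5.05 against 6.30 in mock CEM PA. Of 17 coreceptors and costimulatory molecules tested, 4 were higher and 2 lower. PTPRCAP, which associates with the phosphatase CD45, was higher by 1.69 (SE 0.18). SLAMF6, an adhesion receptor of the SLAM family, was higher by 1.31, and CD38, an enzyme that consumes NAD+, by 0.78. CD69, an early activation antigen, was lower by -1.80 (SE 0.32), and CD6, a receptor related to CD5, by -0.68.

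Among 13 proximal kinases and phosphatases, 3 were higher and 4 lower. CSK, which phosphorylates the inhibitory tyrosine of LCK, was higher by 0.85 (SE 0.17, adjusted p = 0.00153), while LCK itself was at -0.13. The phosphatases PTPN2 and PTPN11 were higher by 1.26 and 0.49. PTPN6, a phosphatase that restrains receptor signalling, was lower by -1.17 (SE 0.18). PTPRJ, a receptor phosphatase, and TXK, a kinase of the Tec family, were not well above background on any mock CEM RES array. Set against the lowest signal above background on each array, PTPRJ was 3.75-fold higher and TXK 2.18-fold higher in mock CEM PA. These values are not bounds, since a probe not above background can read higher than that level. On mock CEM RES replicate 1 the second CD247 probe did so, at 3.94 against 3.79. PTPRJ and TXK passed the filter only through CEM PA, where they were higher. Both are counted among the 4 lower here and the 25 lower between mock cells over the lists.

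Of 26 proximal adaptors tested, 3 were higher and 9 lower. SH2D1A, the adaptor of SLAM receptors, was higher by 1.64 (SE 0.16), as SLAMF6 was. SOS1, a Ras exchange factor, was higher by 1.26, and GRB2, which carries SOS1 and binds THEMIS, by 0.61. NCK2, an adaptor that can bind CD3E, was lower by -2.08 (SE 0.32). C1orf38, the older name of THEMIS2, was lower by -1.60 and SKAP1, which links the receptor to integrins, by -1.50.

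Of 27 genes downstream of the receptor, 8 were higher and 9 lower. PPP3R1, the regulatory subunit of calcineurin, was higher by 2.50 (SE 0.25, adjusted p = 1.5e-05), and PPP3CA, a catalytic subunit, was lower by -1.37 (SE 0.18). NFATC2 was higher by 1.72 (SE 0.20) and NFATC1 lower by -3.15 (SE 0.44), both being transcription factors that calcineurin activates. ITPR2, a calcium release channel, was higher by 1.77, and JUN, a subunit of AP-1, was lower by -1.33.

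**Figure D4:**
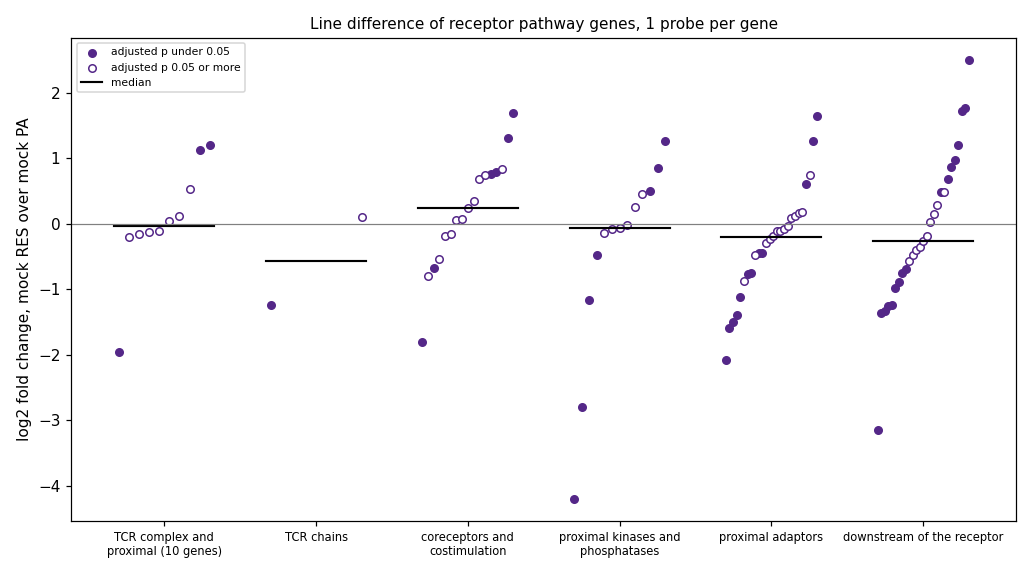
Log2 fold change of mock CEM RES over mock CEM PA (vertical axis) for 1 probe per gene, in the 10 receptor complex genes and the 5 pathway lists (horizontal axis, genes in order of value). Filled points passed an adjusted p under 0.05 and black bars are medians, and every list with more than 2 genes tested holds called genes on both sides of 0. The lowest 2 kinases and phosphatases, PTPRJ and TXK, were not above background in mock CEM RES.

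Of 15 other T lineage markers tested, 4 were higher and 1 lower in mock CEM RES, a smaller share than the 47.4% over all genes. RAG1 and RAG2, the recombinase of the receptor genes, were higher by 1.75 (SE 0.33) and 1.97 (SE 0.35), TCF7 was higher by 1.26, and LEF1 was lower by -1.11 (SE 0.18). GATA3 and TAL1 were at -0.73 and -0.53 and were not called (adjusted p = 0.0779 and 0.0755). CD2, CD7 and CD28 of this list also stand in the list of coreceptors. Between mock cells CD7, CD2 and BCL11B were at 0.06, -0.15 and 0.26 and were not called. With FK866 4 of the 15 markers were higher and 3 lower in CEM RES, where 35.4% of genes were called. RAG1, RAG2, TCF7 and BCL11B (0.97) were the higher ones. GATA3, LEF1 and TAL1 were lower, by -1.57, -1.11 and -0.74.

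Markers of other cells were low in number. Of 7 B cell markers 2 were above background on all arrays and 2 on none, and of 7 myeloid markers on the array 3 were above it on all. The summed signal of the B cell list was 3436 to 3747 in mock CEM PA and 2199 to 3586 in mock CEM RES, and that of the myeloid list 971.9 to 1285 and 291.6 to 345.1. With FK866 the B cell sums were 3619 to 3804 in CEM PA and 1817 to 2565 in CEM RES, and the myeloid sums 1053 to 1209 and 310.7 to 377.5. Of 4 myeloid genes tested, CD68 and ITGAM were lower in mock CEM RES by -2.94 and -0.71. CD14 and SPI1 were at 0.66 and 0.58 and were not called. Of 6 NK markers 1 was above background on all arrays and 2 on none. Their sum was 3017 to 3685 in mock CEM PA and 3374 to 6986 in mock CEM RES, and 2760 to 3307 and 3265 to 5891 with FK866. The myeloid sums were apart between the lines in mock cells and with FK866, the B cell sums only with FK866, and the NK sums overlapped in both. These sums add linear signals, so each was mostly the signal of 1 bright probe and not of its list. In mock CEM PA that probe was CD68 (mean log2 signal 9.94), CD79A (11.77) and NKG7 (11.62) in turn. Of single NK genes NKG7 was higher in mock CEM RES by 0.64 and GNLY lower by -3.88. GNLY passed the filter only through CEM PA, where it was higher, and was above background on 2 of 4 mock CEM RES arrays. NCR1, which passed only through CEM RES, was at 1.03 and was not called (adjusted p = 0.0844). The part of these genes in the differences of the members was not tested.

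Among the probes above background on all 13 arrays, the 3 members whose group means spanned the widest range were CD5 (2.05), CD3G (1.20) and CD3E (1.16). CD3D had the narrowest (0.15) by quantile normalization, and its line difference depended on the scaling. For each of CD5, CD3G and CD3E, the 2 most similar of 14704 other genes were found by the root mean square difference of centred log2 signals over the 13 arrays. They were RALB (0.212) and KIAA1539 (0.231) for CD5, a transcript listed only by an Ensembl identifier (0.0945) and SNHG9 (0.123) for CD3G, and SLC25A39 (0.157) and PYHIN1 (0.163) for CD3E. RALB, a Ras-related GTPase, read 11.61 in mock CEM PA and 9.50 in mock CEM RES on average, beside 11.99 and 10.03 for CD5. SNHG9, a small nucleolar RNA host gene, went from 13.36 to 14.65, beside 13.35 and 14.56 for CD3G.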

How the data were processed

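RNA of 13 samples was hybridized to 1-colour Agilent 4x44K arrays. The authors deposited spot intensities from Feature Extraction (10.7.7.1 per the submitters' processing notes), background-corrected and not normalized between arrays, and a table of log2 values that the authors had quantile normalized. The intensities were used here, and probe positions are those of the array design (hg19). Outlier spots were set to missing, controls removed, log2 signals quantile normalized and spots of a probe averaged. Groups were fitted with limma 3.58.1 in R 4.3.3 (prior degrees of freedom 3.25), two-sided. Files were read and plotted with Python 3.11.15, numpy 2.4.6, pandas 2.3.3 and matplotlib 3.10.9. Precision is set by the number of arrays and by how far signals exceed background, as arrays hold no counts.

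The members and lists were chosen with earlier results of these data known. Named are all member probes, in each pathway list up to 3 genes per direction with the largest called difference between mock cells, and the genes nearest to 3 members. NCK1, TARP and the single markers named were chosen after their values were seen, and CSK, called by this rule, was set beside LCK. A mock array and the FK866 array with its replicate number deviated together from their group means. The correlation across probes was 0.460 and 0.353 for the CEM PA pairs and 0.199, 0.388, 0.474 and 0.290 for the CEM RES pairs. The replicate number therefore also served as a block. With 2 treated CEM PA arrays, their deviations from the group mean mirror each other. Mock CEM PA replicate 3, which has no partner, correlated with FK866 replicate 2 at 0.2585. Replicate 1 of both CEM PA groups made up the first scan session, so in CEM PA the replicate number and the session largely coincide. Other alternatives were normexp background correction (offset 50), 75th percentile scaling, other filters on dim probes, 1 probe per gene, the deposited table, only the compared groups, slide or scan session as a block, array quality weights, and fits without each single array. In those fits a lone array took its spread from the remaining groups. One marker gene is not reported here and was left out of its list. The procedure was tested on 22719 simulated probes, 100 changed by a log2 value of 1 and 100 by 2 in mock CEM RES. Of these, 44% and 89% were called with the right sign, with 7 false calls. Far fewer probes were changed there than were called between mock cells, so these shares need not hold for the real arrays.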

Additional observations from a re-analysis of the deposited data

Results flagged for a closer look

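In the second UBASH3A probe, 1 of the 4 CEM RES arrays with FK866 lay far above the others, with 8.59 in replicate 1 against 8.22, 8.22 and 8.15. Its gap to the next array was 0.831 of the range of the group, just over Dixon's critical value for 4 values. Chance marks about 1 group in 20, and this was the only one of 26 groups of 4 arrays examined. The array with the high value still lay below both CEM PA arrays with FK866, so the difference between the lines did not rest on it.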

How the results depend on the processing

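Calls of CD3G and of the second UBASH3A probe between the lines held under every alternative that tested them, and so did those of CD3E and CD5 between mock cells. The count of called members between mock cells was 3 of 10 with 1 probe per gene, the second probes of CD247 and UBASH3A then being left out, and 4 to 5 under the other alternatives and with each array left out. Under FK866 it was 5 to 7 under those alternatives and ranged from 2 to 7 with each array left out, where fewer samples were tested. FK866 in CEM PA gave 1 called member with array quality weights and 0 otherwise. With the replicate block the counts were 4 and 6 between the lines and 0 for both responses, the second CD247 probe being the member lost, and no other call changed. Under the same block the probes called for FK866 in CEM PA rose from 348 to 1218 over the whole array, and those for the difference between the responses from 94 to 486. The former count was 580 with normexp, 191 without a filter, 90 with 1 probe per gene, 3 with only the compared groups and 1832 with array quality weights, and the latter 186, 56, 23 and 452 where it could be fitted. Leaving out 1 array lowered these counts to as few as 32 and 10, both without CEM PA replicate 2 with FK866, and the probes called between the lines under FK866 from 8186 to 4189, without CEM PA replicate 1 with FK866. At the 75th percentile 236 of 378 called probes were higher with FK866 in CEM PA, against 253 of 348.

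Sign changes met only values that were not called. Between mock cells the second LCK probe was at -0.018 with normexp and -0.066 in the deposited table, with a range of -0.10 to 0.10 on leaving out 1 array. The main CD247 probe was at -0.012 in the deposited table, with a range of -0.071 to 0.19, and CD4 at 0.21 with array quality weights, with a range of -0.32 to 0.074. The cause was not tested. Of the responses to FK866, 7 probes in CEM PA and 7 in CEM RES changed sign under some alternative, as did 5 of the differences between the responses, none of them called. Dim signal limits the second CD247 probe.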
